A study of Homo sapiens with 22 samples.

Results

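The expression of 9 immediate early and immediate early-related genes was followed in MDA-MB-231 cells, an established triple-negative breast cancer (TNBC) line. The genes are EGR1, EGR2 and EGR3, their corepressors NAB1 and NAB2, the immediate early response genes IER2, IER3 and IER5, and SRF. They were listed by name, with earlier results of these data known, and make up 9 of the 20668 gene symbols with a value in every sample. RNA-seq covered 10 samples in 5 groups of 2, numbered 1 and 2 in the titles. The groups were vehicle, 100 nM Dex (dexamethasone, a synthetic glucocorticoid) for 2 h or 4 h, and 10 μM CpdA (compound A, a selective modulator of the glucocorticoid receptor, GR) for 2 h or 4 h. The paper describes 2 biological replicates. All groups were kept for 3 days in phenol red-free medium with charcoal-stripped serum, which is depleted of steroids, before treatment. The labels give vehicle no time point. The deposited columns head vehicle replicate 1 with 2 h and replicate 2 with 4 h, so the vehicle pair may not be replicates of the same time. The series comes from 1 cell line, and the 2 ligands were given at different concentrations, so every Dex against CpdA value compares these treatments as given.

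Immediate early genes are transcribed within minutes of a stimulus without new protein synthesis, and their RNA is usually short-lived. Signals through the ERK kinases reach many of them through SRF, a transcription factor that sits on CArG boxes together with ELK cofactors or with the actin-regulated MRTF cofactors. EGR proteins are zinc finger transcription factors that bind GC-rich sites, and NAB1 and NAB2 bind EGR proteins and restrain them. IER2 and IER5 are related nuclear proteins, whereas IER3 (also called IEX-1) is a small stress-induced protein that modulates cell survival and ERK signalling and is a known target of NF-kB. Glucocorticoids are known to repress many genes driven by NF-kB and AP-1.

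The sequences upstream of these genes are shown because they differ in whether a CArG box was matched close to a listed start. Sites further away were not searched. RefSeq promoter windows were matched by symbol for 7 of the 9 genes, all but EGR3 and IER3. The 150 bases before a listed start are given 5′ to 3′ on the gene's strand for 5 of them (GRCh38.p14), with CArG boxes in capitals. They are chr5:138465329-138465478 on the plus strand for EGR1, chr10:62816367-62816516 on the minus strand for EGR2 (the third of 3 listed starts), chr6:43171119-43171268 on the plus strand for SRF (the first of 2 listed starts), chr19:13150261-13150410 on the plus strand for IER2 and chr1:181088550-181088699 on the plus strand for IER5.
EGR1: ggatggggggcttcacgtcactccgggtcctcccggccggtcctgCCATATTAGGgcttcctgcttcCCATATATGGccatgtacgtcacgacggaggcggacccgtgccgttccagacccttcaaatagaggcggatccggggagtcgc
EGR2: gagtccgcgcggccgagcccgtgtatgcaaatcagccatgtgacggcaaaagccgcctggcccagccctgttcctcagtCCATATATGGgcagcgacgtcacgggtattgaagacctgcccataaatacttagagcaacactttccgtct
SRF: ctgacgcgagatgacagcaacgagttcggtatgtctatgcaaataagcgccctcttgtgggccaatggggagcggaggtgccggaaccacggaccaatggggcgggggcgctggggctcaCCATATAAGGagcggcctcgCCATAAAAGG
IER2: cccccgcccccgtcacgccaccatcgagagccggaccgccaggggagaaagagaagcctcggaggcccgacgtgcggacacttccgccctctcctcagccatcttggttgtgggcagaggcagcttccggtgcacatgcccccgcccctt
IER5: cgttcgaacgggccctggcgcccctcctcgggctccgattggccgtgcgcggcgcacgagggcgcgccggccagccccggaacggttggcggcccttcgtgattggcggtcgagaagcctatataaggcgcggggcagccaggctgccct

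The 250 bases before each start were searched on both strands for a CArG box, a cAMP response element core (TGACGT, which also lies within the full element TGACGTCA), an EGR site (GCGNGGGCG), an AP-1 site (TGANTCA), a glucocorticoid response element core (ACANNNTGT) and an NF-kB site. A CArG box was present in 1.16% of the 35116 RefSeq windows. EGR1 held 2, at -105 to -96 and -83 to -74 from its start, and SRF held 2, at -30 to -21 and -10 to -1. EGR2 held 1, at -71 to -62. The cAMP response element core (7.1% of windows) matched at 2 places before EGR1 and 1 before EGR2, and also before the third listed start of NAB1. EGR sites (8.41% of windows) stood before EGR1, SRF, NAB1 and NAB2, and neither NAB gene held a CArG box. IER2 and IER5 held none of the motifs searched. No glucocorticoid response element core (4.61% of windows) or AP-1 site (6.57%) was in any window of the 7 genes. An NF-kB site (9.96% of windows) lay before the second listed starts of EGR2, NAB1 and SRF. These matches describe letters in a window and do not show that a factor binds there.

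The line was checked against its markers. VIM and AXL, genes of mesenchymal-like cells, ranged from 1267 to 1464 RPKM and from 212 to 264 RPKM over the 10 samples, and ESR1 and PGR did not exceed 0.005 and 0.003 RPKM. ERBB2 (15.9 to 21.6 RPKM) and EPCAM (8.02 to 10.6 RPKM) were detected. Of 6 markers of other cell types, PTPRC, DCN and COL3A1 stayed at or below 0.063 RPKM, PECAM1 at or below 0.324 and COL1A1 at or below 2.60, while CD68 lay between 31.4 and 34.9. TSC22D3, a glucocorticoid-induced gene, was at 302 to 315 RPKM under Dex, 9.79 and 8.22 in vehicle and 10.5 to 12.4 under CpdA. PER1, a further such gene, was at 34.9 to 38.7 RPKM under Dex, 2.07 and 1.28 in vehicle and 2.88 to 3.96 under CpdA. FKBP5, also glucocorticoid-induced, was at 73.4 to 212, 5.94 and 7.06, and 5.97 to 7.96 RPKM in the same order. NR3C1, which encodes GR, was at 9.96 to 14.7, 22.9 and 20.4, and 22.1 to 25.5 RPKM. Values are RPKM, reads scaled to transcript length and to the sample's mapped reads, so levels of different genes can be compared per length. Read totals are unknown. Relative depth was taken as the most frequent ratio of RPKM between vehicle replicate 1 and a sample, over rarely read genes. With vehicle replicate 1 as the reference at 1.0, it was 1.013 for replicate 2 and 1.058 to 1.212 in the treated samples.

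The 2 vehicle samples differed more for most of these genes than for nearly all other genes. On the log2 scale of RPKM + 0.1, vehicle replicate 1 exceeded replicate 2 by 2.53 for EGR3, 1.26 for NAB2, 1.11 for EGR1, 1.09 for EGR2, 0.90 for NAB1 and 0.88 for IER3. Among the differences of the 12713 genes tested, these 6 lay at percentiles of 99.32 to 99.89. SRF differed by 0.28 and IER5 by 0.13, and IER2 was lower in replicate 1 by 0.10 (log2 difference -0.10). The deposited columns are headed with 2 h for vehicle replicate 1 and 4 h for replicate 2, so a difference between replicates and a difference between times cannot be told apart here. If the headings give the treatment time, replicate 1 is the time-matched reference for the 2 h groups and replicate 2 for the 4 h groups. Against vehicle, results are therefore also given with each vehicle sample alone, where the lone sample is assumed to vary like the other groups. The gaps above go against that assumption for these 6 genes. Adjusted p values and calls from such fits take their spread from the treated groups only and do not measure the spread between vehicle samples.

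**Figure D1:**
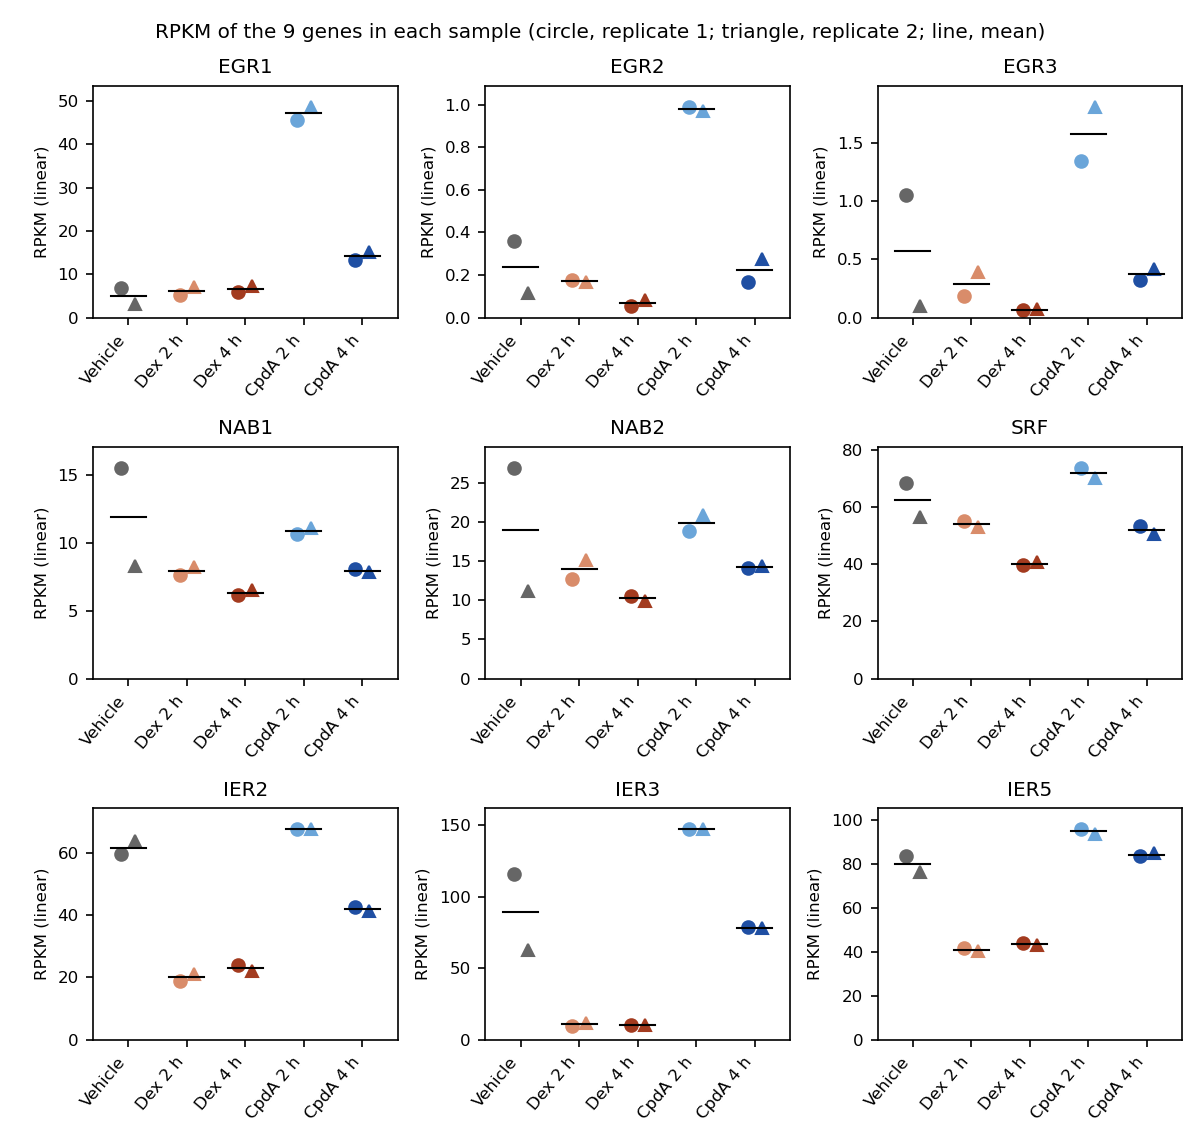
RPKM of the 9 genes (vertical axis, linear, starting at 0 and scaled for each gene) in each of the 10 samples by group (horizontal axis); circles are replicate 1, triangles replicate 2 and lines the mean of the 2. The 4 Dex samples of IER3 sit between 9.76 and 11.4 RPKM, EGR1 is highest in the 2 CpdA 2 h samples (45.7 and 48.6 RPKM), and the vehicle duplicates stand apart for EGR, NAB and IER3.

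Each treatment was tested against vehicle with limma on log2(RPKM + 0.1) in one fit of all 10 samples, and a gene was called at a Benjamini-Hochberg adjusted p below 0.05 over 12713 genes. Dex at 2 h lowered 3 of the 9 genes (IER2, IER3 and IER5) and raised 0; over all genes 5.82% were called lower and 4.49% higher. Dex at 4 h lowered 5 (the same 3, NAB1 and SRF) and raised 0, where 18.2% of all genes were lower and 9.26% higher. CpdA at 2 h raised 3 (EGR1, EGR2 and IER5) and lowered 0, where 1.89% of all genes were higher and 4.29% lower. EGR2 reached the filter on low values only through its CpdA 2 h samples, so its count there has no weight of its own, and without EGR2 CpdA at 2 h raised 2 of 8. CpdA at 4 h raised 1 (EGR1) and lowered 2 (IER2 and SRF), where 6.76% of all genes were higher and 13.8% lower. With the study's added cutoff of a fold change above 2, the calls were 2 at Dex 2 h and 2 at Dex 4 h (IER2 and IER3 each time), 2 at CpdA 2 h (EGR1 and EGR2) and 1 at CpdA 4 h (EGR1). Over all genes that cutoff called 2.01%, 3.78%, 0.488% and 0.889% in the same order. At an unadjusted limma p below 0.05, 5 genes were lower and 0 higher at Dex 2 h, where 13.8% of all genes were lower and 7.94% higher, and 8 were lower and 0 higher at Dex 4 h, where 25.9% were lower and 12.4% higher. At that threshold 6 were higher and 0 lower at CpdA 2 h (6.09% and 14.2% of all genes), and 1 was higher and 3 were lower at CpdA 4 h (11.5% and 21.8%). With the samples scaled to one median, the higher and lower calls over all genes were 1600 and 1604 at Dex 4 h in place of 1177 and 2310, 295 and 367 at CpdA 2 h in place of 240 and 546, and 1386 and 1098 at CpdA 4 h in place of 860 and 1749, while the 9 genes kept their counts except that SRF was no longer called at CpdA 4 h. The 4 comparisons share the vehicle samples. In these bulk samples, fewer cells with a transcript and less transcript per cell cannot be told apart.

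**Figure D2:**
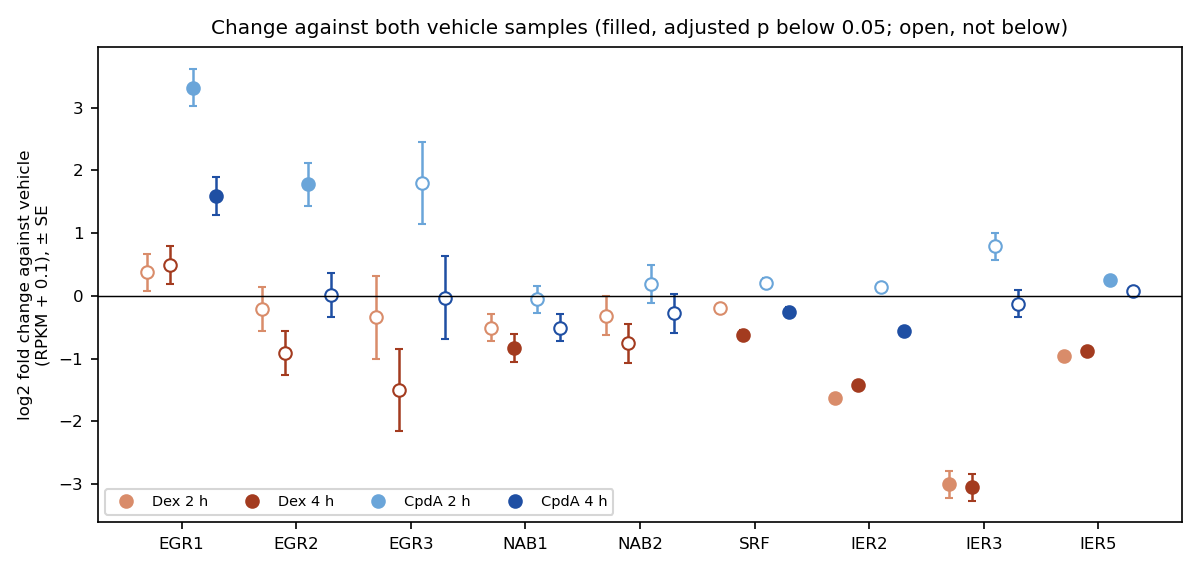
Log2 fold change of RPKM + 0.1 against both vehicle samples (vertical axis) for each gene (horizontal axis) and treatment (colour), with the limma standard error as bars (n = 2 per group); filled points have an adjusted p below 0.05, and EGR2 passed the filter on low values only through CpdA 2 h. IER3 lies at -3.00 and -3.05 under Dex, and EGR1 at 3.32 and 1.60 under CpdA.

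EGR1 encodes the founding member of its family and lies at chr5:137801168-137804992 on the plus strand (GRCh37). Its level was 6.84 and 3.12 RPKM in the vehicle duplicates, 5.14 and 7.04 after 2 h and 5.80 and 7.38 after 4 h of Dex, and 45.7 and 48.6 after 2 h and 13.2 and 15.2 after 4 h of CpdA. Both CpdA groups lay above every vehicle and Dex sample, and the Dex samples overlapped vehicle. CpdA raised EGR1 9.98-fold at 2 h (log2 fold change 3.32, SE 0.30, adjusted p = 0.000405) and 3.02-fold at 4 h (log2 fold change 1.60, SE 0.30, adjusted p = 0.00603). The 2 h change was the sixth in absolute size among the genes tested. Under Dex the log2 changes of EGR1 were 0.37 at 2 h (adjusted p = 0.565) and 0.49 at 4 h (adjusted p = 0.273). With vehicle replicate 2 alone as reference the Dex changes of EGR1 were called, 0.93 at 2 h (adjusted p = 0.0211) and 1.05 at 4 h (adjusted p = 0.00715), whereas with replicate 1 alone they were -0.18 and -0.06 (adjusted p = 0.825 and 0.85). The CpdA increases of EGR1 were called in 19 of 19 alternative settings, with log2 changes of 2.77 to 3.87 at 2 h and 1.04 to 2.15 at 4 h.

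EGR2, best known for its role in myelination, and EGR3, a further paralogue, were close to the limit of detection. EGR2 lies at chr10:64571756-64578927 on the minus strand and EGR3 on the minus strand of chromosome 8 (GRCh37). EGR2 was at 0.359 and 0.116 RPKM in vehicle, 0.174 and 0.169 after 2 h and 0.0527 and 0.0848 after 4 h of Dex, and 0.989 and 0.968 after 2 h and 0.166 and 0.277 after 4 h of CpdA. Its 2 CpdA 2 h samples were the highest, and they alone took EGR2 past the filter of 0.5 RPKM in 2 samples, so that its place among the genes tested was set by the group in which it was high. The pseudocount of 0.1 understates changes at such levels. The CpdA 2 h change of EGR2 was 3.42-fold (log2 fold change 1.77, SE 0.35, adjusted p = 0.0194). It was called in 13 of 18 alternatives, with a range of 0.68 to 2.32, with no filter on low values its adjusted p was 0.0554, and with vehicle replicate 1 alone the change was 1.23 (adjusted p = 0.0779).

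EGR3 was at 1.05 and 0.0983 RPKM in vehicle, 0.187 and 0.393 after 2 h and 0.0614 and 0.0751 after 4 h of Dex, and 1.35 and 1.80 after 2 h and 0.326 and 0.414 after 4 h of CpdA. It passed the filter through vehicle replicate 1 and the CpdA 2 h samples. The 2 CpdA 2 h samples were the highest and the 2 Dex 4 h samples the lowest, and the vehicle duplicates spanned most of the range. EGR3 was called by limma in none of the 4 treatments in the fit of all samples (2 of the 4 had an unadjusted p below 0.05, 0.0481 at Dex 4 h and 0.0232 at CpdA 2 h). Its change at Dex 4 h was -2.77 against vehicle replicate 1 (adjusted p = 0.000839) and -0.24 against replicate 2 (adjusted p = 0.698). At CpdA 2 h the change of EGR3 was 3.06 against replicate 2 (adjusted p = 0.00232) and 0.53 against replicate 1 (adjusted p = 0.62).

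NAB1 (chr2:191511472-191557492, plus strand, GRCh37) was at 15.5 and 8.28 RPKM in vehicle, 7.67 and 8.25 after 2 h and 6.18 and 6.52 after 4 h of Dex, and 10.7 and 11.1 after 2 h and 8.07 and 7.83 after 4 h of CpdA. NAB2 (chr12:57482826-57489259, plus strand), which EGR proteins are known to induce in a feedback loop, was at 26.9 and 11.2 RPKM in vehicle, 12.7 and 15.2 after 2 h and 10.6 and 9.88 after 4 h of Dex, and 18.8 and 20.8 after 2 h and 14.1 and 14.4 after 4 h of CpdA. Both were highest in vehicle replicate 1, and both were lower at Dex 4 h than in every other sample of the series. NAB1 fell at Dex 4 h (log2 fold change -0.83, SE 0.22, adjusted p = 0.0209), a call kept in 16 of 19 alternatives. That change was -1.28 against vehicle replicate 1 alone and -0.38 against replicate 2 alone. The change of NAB1 at Dex 2 h was -0.96 against vehicle replicate 1 (adjusted p = 7.94e-05) and -0.06 against replicate 2 (adjusted p = 0.681). NAB2 was called by limma in no treatment with both vehicle samples (1 of the 4 had an unadjusted p below 0.05, 0.0369 at Dex 4 h). Against replicate 1 alone NAB2 was lower at Dex 2 h, Dex 4 h and CpdA 4 h (-0.95, -1.39 and -0.91, with adjusted p = 0.00101, 6.43e-05 and 0.00152), and against replicate 2 alone it was higher at CpdA 2 h (0.82, adjusted p = 0.00424). NAB2 and STAT6 overlap tail to tail by 69 bases on opposite strands, and STAT6 stayed between 30.6 and 34.5 RPKM over the 10 samples. Strand was not stated for the counting, so reads in shared bases cannot be assigned.

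SRF (chr6:43139007-43149244, plus strand, GRCh37) encodes the factor that binds CArG boxes. Its level was 68.5 and 56.5 RPKM in vehicle, 55.2 and 52.9 after 2 h and 39.6 and 40.7 after 4 h of Dex, and 73.7 and 70.3 after 2 h and 53.4 and 50.7 after 4 h of CpdA. The 2 CpdA 2 h samples were the highest and the 2 Dex 4 h samples the lowest. SRF fell at Dex 4 h (log2 fold change -0.63, SE 0.08, adjusted p = 0.000333), a call made in 19 of 19 alternatives. Its fall at CpdA 4 h was smaller (-0.26, SE 0.08, adjusted p = 0.048) and was called in 8 of 19 alternatives.

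IER3 (chr6:30710976-30712325, minus strand, GRCh37) fell most under Dex. It was at 116 and 62.9 RPKM in vehicle, 9.76 and 11.4 after 2 h and 10.0 and 10.4 after 4 h of Dex, and 147 and 147 after 2 h and 78.5 and 78.0 after 4 h of CpdA. All 4 Dex samples lay below all others, the 2 CpdA 4 h samples lay between the vehicle duplicates, and the 2 CpdA 2 h samples were the highest. The decrease was 8.03-fold at 2 h (log2 fold change -3.00, SE 0.22, adjusted p = 2.04e-05) and 8.28-fold at 4 h (-3.05, SE 0.22, adjusted p = 8.65e-06), ranked 22 and 35 by absolute size among all genes tested. Over 19 alternatives the change of IER3 stayed called and lay between -3.44 and -2.57 at 2 h and between -3.49 and -2.61 at 4 h. IER3 under CpdA was 0.79 at 2 h (SE 0.22, adjusted p = 0.0693) and -0.13 at 4 h (adjusted p = 0.734). With vehicle replicate 2 alone the IER3 increase at CpdA 2 h was called (1.23, adjusted p = 0.00016), and with replicate 1 alone it was 0.35 (adjusted p = 0.0819). At CpdA 4 h the direction of IER3 turned with the reference, from -0.57 (adjusted p = 0.00357) against replicate 1 to 0.31 (adjusted p = 0.042) against replicate 2. The non-coding genes IER3-AS1 and HCG20 overlap IER3 by 440 and 759 bases on the opposite strand in GENCODE, and reads of the 2 strands cannot be told apart. Further non-coding genes without a symbol overlap EGR2, EGR3, IER2 and NAB1.

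IER2 (chr19:13261225-13265725, plus strand, GRCh37) was at 59.6 and 63.8 RPKM in vehicle, 18.8 and 21.2 after 2 h and 24.0 and 22.2 after 4 h of Dex, and 67.7 and 67.6 after 2 h and 42.5 and 41.2 after 4 h of CpdA. No 2 of the 5 groups overlapped, with Dex 2 h the lowest and CpdA 2 h the highest. IER2 fell 3.08-fold at Dex 2 h (log2 fold change -1.62, SE 0.06, adjusted p = 3.79e-07) and 2.67-fold at Dex 4 h (-1.42, adjusted p = 4.49e-07). At CpdA 2 h the change of IER2 was 0.13 (adjusted p = 0.287), and at CpdA 4 h it fell by 0.56 on the log2 scale (adjusted p = 0.000474). Of these, the 3 calls were made in 19 of 19 alternatives.

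IER5 (chr1:181057836-181062036, plus strand, GRCh37), which is linked to the heat shock response, was at 84.0 and 76.6 RPKM in vehicle, 41.7 and 40.3 after 2 h and 44.1 and 43.1 after 4 h of Dex, and 96.1 and 93.9 after 2 h and 83.7 and 85.1 after 4 h of CpdA. The 4 Dex samples lay below all others and the 2 CpdA 2 h samples above all others. IER5 fell 1.95-fold at Dex 2 h (log2 fold change -0.97, SE 0.05, adjusted p = 1.78e-06) and 1.84-fold at Dex 4 h (-0.88, adjusted p = 1.65e-06). These decreases were just short of the study's fold cutoff of 2 and were called at adjusted p below 0.05 in 19 of 19 alternatives. The CpdA 2 h increase of IER5 was 1.18-fold (0.24, SE 0.05, adjusted p = 0.0205) and was called in 13 of 19.

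The counts above moved with the vehicle sample used. In fits with vehicle replicate 2 alone, only the CpdA 2 h samples of EGR2 and EGR3 reached 0.5 RPKM. The part of these genes in the CpdA 2 h count of those fits was favoured by the filter and has no weight of its own. With vehicle replicate 2 alone, Dex raised 1 and lowered 3 of the 9 genes at 2 h (5.02% and 6.82% of all genes) and raised 1 and lowered 5 at 4 h (7.70% and 14.1%). CpdA then raised 8 and lowered 0 at 2 h (3.59% and 5.79% of all genes) and raised 2 and lowered 1 at 4 h (5.40% and 9.69%). With vehicle replicate 1 alone, Dex raised 0 and lowered 7 at 2 h (3.63% and 4.19%) and raised 0 and lowered 8 at 4 h (8.12% and 15.0%). CpdA then raised 1 and lowered 1 at 2 h (1.21% and 1.93%) and raised 1 and lowered 6 at 4 h (5.77% and 11.3%). The calls made in the same direction with either vehicle sample alone were EGR1 under CpdA at both times, IER2, IER3 and IER5 under Dex at both times, NAB1 and SRF at Dex 4 h and IER2 at CpdA 4 h.

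**Figure D3:**
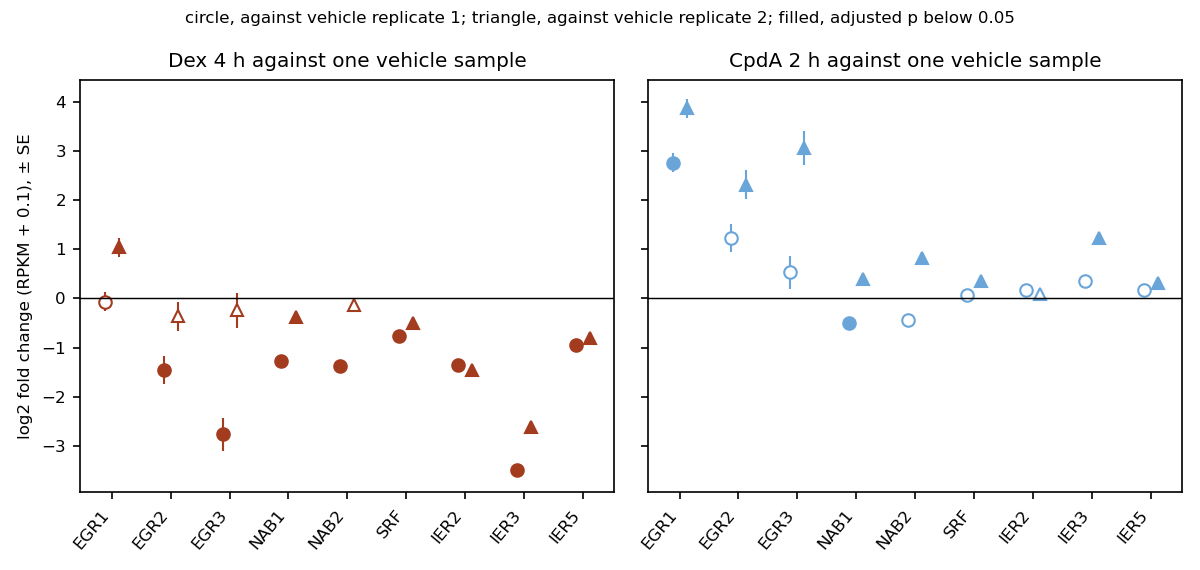
Log2 fold change of RPKM + 0.1 (vertical axis, with the limma standard error) of each gene at Dex 4 h (left) and CpdA 2 h (right) against vehicle replicate 1 alone (circles) or vehicle replicate 2 alone (triangles); filled points have an adjusted p below 0.05. EGR3 at Dex 4 h moves from -2.77 to -0.24 between the references, while IER2 stays at -1.37 and -1.46.

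Dex and CpdA were then compared with each other at matched times, where the vehicle samples do not enter the difference. At 2 h, 6 of the 9 genes were lower under Dex than under CpdA and 0 were higher, against 6.18% of all genes lower and 7.53% higher; 5 of the 6 passed a fold of 2, against 2.30% of all genes. Without EGR2, which entered through its CpdA 2 h samples, 5 of 8 were lower at 2 h and 4 of them passed a fold of 2. At 4 h, 5 were lower and 0 higher, against 18.0% lower and 15.4% higher over all genes; 2 of the 5 passed a fold of 2, against 4.34%. The genes called at both times were EGR1, IER2, IER3, IER5 and SRF, and EGR2 was called at 2 h. The 3 IER genes stood 13.8-fold (IER3), 3.38-fold (IER2) and 2.31-fold (IER5) lower under Dex at 2 h (adjusted p = 3.81e-06, 1.97e-07 and 3.42e-07). At 4 h the differences of the IER genes were 7.59-fold (IER3), 1.81-fold (IER2) and 1.93-fold (IER5), with adjusted p = 9.62e-06, 1e-05 and 8.24e-07. EGR1 was 7.72-fold lower at 2 h (adjusted p = 0.000158) and 2.15-fold lower at 4 h (adjusted p = 0.02). The call of EGR1 was made in 19 of 19 alternatives at 2 h and in 15 of 19 at 4 h. SRF was 1.33-fold and 1.29-fold lower (adjusted p = 0.00735 and 0.00574).

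In all 9 genes both Dex samples lay below both CpdA samples at 2 h and again at 4 h, a pattern shown by 29.4% of all genes at 2 h and 35.2% at 4 h. With unadjusted p below 0.05 in limma, 7 of the 9 were lower and 0 higher at 2 h (11.3% and 12.9% of all genes), and 6 were lower and 0 higher at 4 h (23.5% and 19.6%). The spread in the fit of 10 samples includes the gap between the vehicle duplicates, and in a fit of the 8 treated samples alone, added after the values were seen, all 9 genes were called lower under Dex at both times, EGR2 and EGR3 having reached the filter among treated samples only at CpdA 2 h. That fit called 6.72% of all genes lower at 2 h and 18.9% at 4 h. NAB1 was then lower by 0.45 at 2 h (log2 difference -0.45, SE 0.06, adjusted p = 0.00117) and NAB2 by 0.51 (-0.51, SE 0.09, adjusted p = 0.00633). EGR3 was at -2.14 at 2 h (SE 0.28) and -1.48 at 4 h (SE 0.28, adjusted p = 0.00516). At 2 h, Dex values of EGR2 and EGR3 below those of CpdA were favoured by the filter. Their part in the 2 h counts of 9 and 7 has no weight of its own.

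The 4 h samples were compared with the 2 h samples of the same ligand, since immediate early induction is usually transient. Between CpdA 2 h and 4 h, 5 of the 9 genes fell (EGR1, EGR2, IER2, IER3 and SRF) and 0 rose, against 7.20% of all genes lower and 5.21% higher. Without EGR2, whose CpdA 2 h samples alone took it past the filter, 4 of 8 fell. EGR1 fell 3.30-fold (log2 difference -1.72, SE 0.30, adjusted p = 0.00867) and IER3 1.88-fold (-0.91, adjusted p = 0.0276). IER2 fell 1.62-fold (adjusted p = 0.000686) and SRF 1.38-fold (adjusted p = 0.00771). Of 19 alternative settings, 15 called this fall for EGR1, 13 for IER3, 19 for IER2 and 17 for SRF. By unadjusted limma p below 0.05, 7 were lower and 0 higher (16.0% and 12.2% of all genes). Both CpdA 4 h samples lay below both CpdA 2 h samples for all 9 genes, as for 35.8% of all genes, and all 9 were called lower in the fit of the 8 treated samples, in which 8.94% of all genes were lower. Among treated samples EGR2 and EGR3 reached the filter only at CpdA 2 h. Their falls from that group were favoured by the filter, and their part in these counts of 7 and 9 has no weight of its own. Between Dex 2 h and 4 h only SRF was called (1.35-fold lower, log2 difference -0.43, SE 0.08, adjusted p = 0.00874), so 1 of 9 genes fell and 0 rose, against 9.02% and 4.55% of all genes. At an unadjusted p below 0.05 18.9% of all genes were lower and 10.6% higher. Median scaling turned the balance of higher and lower calls over all genes, to 866 and 760 for the Dex times in place of 578 and 1147, with IER2 then called higher, and to 816 and 678 for the CpdA times in place of 662 and 915, where the 9 genes kept their counts. IER2 was higher at Dex 4 h at an unadjusted limma p of 0.0104 (log2 difference 0.21, adjusted p = 0.0647), and IER3 was at -0.05 (SE 0.22, adjusted p = 0.913). Without the vehicle samples 4 genes were lower at Dex 4 h than at 2 h, namely SRF, NAB1 (-0.32, adjusted p = 0.00866), NAB2 (-0.44, adjusted p = 0.0152) and EGR3 (-1.16, adjusted p = 0.0318), where 10.5% of all genes were lower.

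IER3 was set against each of the other 8 genes within a sample, as the log2 ratio of RPKM + 0.1, which shows whether IER3 changed by more than the other gene and, apart from the pseudocount, does not depend on a single scaling factor for the sample. IER3 relative to IER2 was 0.96 and -0.02 in vehicle, -0.94 and -0.89 after 2 h and -1.25 and -1.08 after 4 h of Dex, and 1.12 and 1.12 after 2 h and 0.88 and 0.92 after 4 h of CpdA. IER3 relative to IER5 was 0.46 and -0.28 in vehicle, between -2.13 and -1.81 in the 4 Dex samples and between -0.13 and 0.65 in the 4 CpdA samples. IER3 relative to SRF was 0.76 and 0.15 in vehicle, between -2.49 and -1.96 under Dex and between 0.55 and 1.07 under CpdA. IER3 was thus lower than IER2, IER5 and SRF per length in every Dex sample, and IER3 was the highest of the 9 genes in both CpdA 2 h samples and in vehicle replicate 1.

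For all 8 ratios the 4 Dex samples lay below the 4 CpdA samples, as they did for the ratio of IER3 to 99.6% of the 12712 other genes tested. The 8 ratios share IER3, whose own mean log2 level was 3.36 lower under Dex (difference -3.36), so they describe that fall relative to each gene and are not separate support for it. Each gave a two-sided exact permutation p of 0.0286, the smallest that 4 against 4 samples allow (adjusted p = 0.0286 over the 8 ratios). The times are pooled in this test. The mean difference of the log2 ratio, Dex minus CpdA, was -2.97 with NAB1 and SRF as the other gene (-2.97 each), -2.86 with NAB2, -2.28 with IER5, -2.05 with IER2, -1.91 with EGR2, -1.55 with EGR3 and -1.33 with EGR1. With a pseudocount of 0.01 the ratios to EGR2 and EGR3 no longer passed (adjusted p = 0.098 and 0.2), and with quantile normalisation the ratio to EGR3 did not (adjusted p = 0.0571). All 4 Dex samples also lay below both vehicle samples for each of the 8 ratios. IER3 itself was at 9.76 to 11.4 RPKM in the Dex samples and at 116 and 62.9 RPKM in vehicle. The share of other genes with this pattern against vehicle was not computed, so it describes the fall of IER3 and not the 8 other genes. The mean gap to vehicle was -1.51 for IER3 relative to IER2, -2.11 relative to IER5 and -3.46 relative to EGR1, given as values because 4 against 2 samples cannot go below an exact p of 0.0667.

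**Figure D4:**
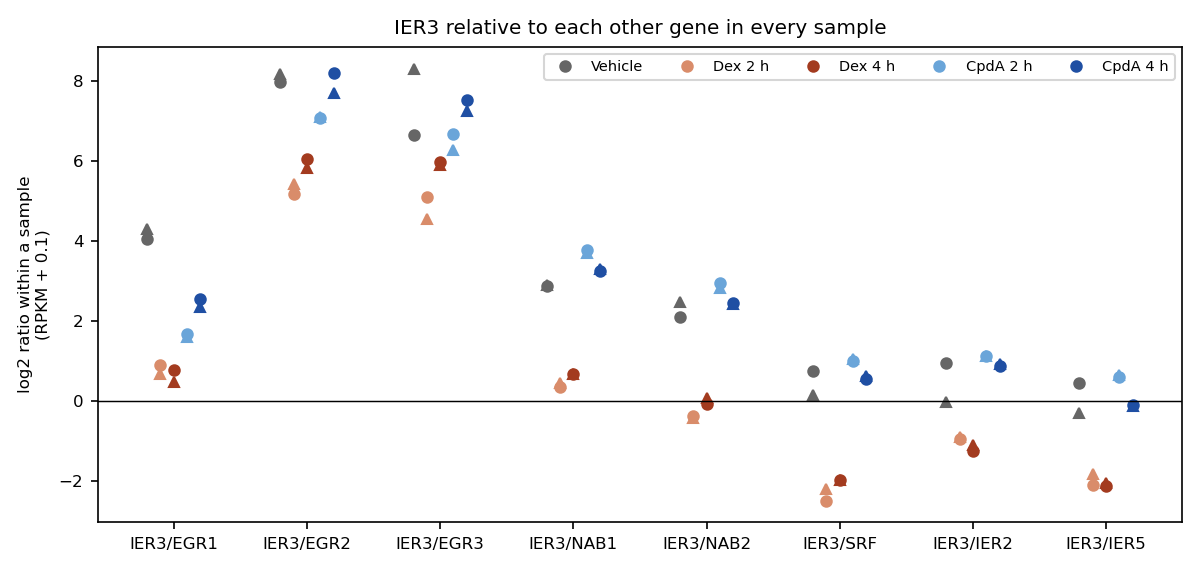
Log2 ratio of IER3 to each other gene within a sample, from RPKM + 0.1 (vertical axis), for the 8 other genes (horizontal axis); colour is the group, circles are replicate 1 and triangles replicate 2. For each of the 8 ratios the 4 Dex samples lie below the 4 CpdA and the 2 vehicle samples. The 8 ratios share IER3 and its fall under Dex.

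The pattern of each gene over the 10 samples was compared by Pearson correlation of log2(RPKM + 0.1), as a description: the samples share groups, so the points are not independent. IER2, IER3 and IER5 followed each other most closely (r from 0.947 to 0.991 among the 3), as did NAB1 with NAB2 (0.953) and EGR2 with EGR3 (0.947). EGR1 was closest to EGR2 (0.863), EGR3 (0.791) and IER3 (0.623) and had its lowest values with IER2 (0.503) and NAB1 (0.378). Of 7955 other genes with a mean of at least 5 RPKM, those most like IER3 were CXCL8 (0.995), a neutrophil chemokine, IL6 (0.991), an inflammatory cytokine, IER5 (0.991), JUN (0.991), an AP-1 subunit, and DLC1 (0.991). CXCL8 averaged 31.5 RPKM in vehicle, 5.29 and 4.87 at Dex 2 h and 4 h, and 42.6 and 25.5 at CpdA 2 h and 4 h. Those most like EGR1 were the orphan nuclear receptor NR4A1 (0.979), the small GTPase RASD1 (0.932), the histone demethylase KDM3A (0.915), JUND (0.911), a further AP-1 subunit, and the kinase MAP3K10 (0.910).

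Other genes of the same signalling were read from 7 lists, by counts called against both vehicle samples. Over all genes 4.49% were called higher and 5.82% lower at Dex 2 h, and 9.26% and 18.2% at Dex 4 h. For CpdA the shares were 1.89% and 4.29% at 2 h and 6.76% and 13.8% at 4 h. At an unadjusted limma p below 0.05 they were 7.94% and 13.8% at Dex 2 h and 12.4% and 25.9% at Dex 4 h. Under CpdA that threshold gave 6.09% and 14.2% at 2 h and 11.5% and 21.8% at 4 h. A count near these shares does not set a list apart. Of 16 other immediate early transcription factors, CpdA raised 10 and lowered 0 at 2 h (median log2 change 0.65, against -0.02 over all genes) and raised 6 and lowered 2 at 4 h (0.29 against -0.04). At an unadjusted limma p below 0.05, 13 were higher and 1 was lower at CpdA 2 h. Dex raised 3 and lowered 4 of them at 2 h and raised 3 and lowered 5 at 4 h (medians -0.01 and -0.16, against -0.02 and -0.05). NR4A1 was at 1.75 and 1.05 RPKM in vehicle and 26.9 and 30.3 at CpdA 2 h (log2 fold change 4.30, SE 0.19, adjusted p = 4.46e-06). NR4A3, its paralogue, was at 0.322 and 0.156 RPKM in vehicle and 6.20 and 6.74 at CpdA 2 h (4.32, SE 0.22, adjusted p = 1.18e-05). Its log2 changes under Dex were -0.80 and -0.84, so NR4A3 passed the filter of 0.5 RPKM only through its CpdA samples. The part of NR4A3 in the CpdA counts of these factors was favoured by the filter and has no weight of its own. At 4 h NR4A3 and NR4A1 were still up by 2.87 and 2.46 (adjusted p = 7.41e-05 and 7.62e-05).

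Under Dex the largest called changes among these factors were decreases. JUN was at 70.4 and 59.4 RPKM in vehicle and 21.8 and 20.1 at Dex 2 h (log2 fold change -1.63, SE 0.07, adjusted p = 8.68e-07), and was at -1.57 at 4 h (adjusted p = 4.83e-07). FOSL1, an AP-1 subunit abundant in this line, was at 385 and 280 RPKM in vehicle and 82.9 and 86.2 at Dex 4 h (-1.96, SE 0.12, adjusted p = 2.94e-06), and NR4A2 was at -1.45 at Dex 2 h (adjusted p = 0.000312). With vehicle replicate 2 alone the counts of higher and lower factors were 7 and 4 after 2 h and 6 and 4 after 4 h of Dex, and 14 and 1 after 2 h and 10 and 2 after 4 h of CpdA. With replicate 1 alone they were 2 and 8, 3 and 9, 10 and 0, and 6 and 4.

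Of 15 other immediate early effectors, Dex raised 9 and lowered 3 at 2 h (median 0.82) and raised 9 and lowered 4 at 4 h (median 0.58). CpdA raised 8 and lowered 1 at 2 h (median 0.56) and raised 3 and lowered 1 at 4 h (median -0.03). DUSP1, a phosphatase of MAP kinases and a known glucocorticoid target, was at 14.6 and 11.6 RPKM in vehicle, 101 and 101 at Dex 2 h, and 90.8 and 86.5 at CpdA 2 h, with log2 changes of 2.95 (SE 0.09, adjusted p = 8.08e-08) and 2.76 (SE 0.09, adjusted p = 4.38e-07). At 4 h DUSP1 was up by 3.24 under Dex and 1.85 under CpdA (adjusted p = 2.01e-08 and 4.12e-06). ZFP36, which promotes decay of AU-rich messages, rose at Dex 2 h from 6.19 and 8.48 RPKM to 49.5 and 52.7 (2.80, SE 0.13, adjusted p = 8.68e-07). HBEGF, a ligand of EGFR, fell at Dex 4 h from 84.2 and 45.0 RPKM to 7.82 and 7.13 (-3.03, SE 0.22, adjusted p = 1.04e-05). SGK1, a kinase, rose at CpdA 2 h by 1.18 (adjusted p = 0.00287), and CTGF, a matricellular protein, fell at CpdA 4 h (-0.98, adjusted p = 0.0168). The CTGF change was -1.45 against vehicle replicate 1 alone and -0.52 against replicate 2 alone, and it was called in 15 of 19 alternatives. At CpdA 4 h the effector count was 5 higher and 1 lower with vehicle replicate 2 alone and 3 higher and 6 lower with replicate 1 alone. At the other treatments 7 to 12 effectors were higher with either vehicle sample alone, and 0 to 6 lower.

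Of 15 genes that report on or feed back on the ERK pathway, Dex raised 2 and lowered 6 at 2 h (median -0.12) and raised 1 and lowered 11 at 4 h (median -0.58). CpdA raised 1 and lowered 3 at 2 h (median -0.03) and raised 0 and lowered 8 at 4 h (median -0.31; 0 and 11 at an unadjusted limma p below 0.05). SPRY4, a feedback inhibitor of receptor signalling, went the other way under Dex at 2 h, from 40.3 and 29.6 RPKM to 102 and 116 (1.65, SE 0.14, adjusted p = 5.61e-05). DUSP4 fell at Dex 2 h (-1.17, adjusted p = 1.01e-06), and PHLDA1 and DUSP5 at Dex 4 h (-1.54 and -1.30, adjusted p = 1.08e-07 and 0.00103). DUSP6, an ERK phosphatase, fell at CpdA 2 h and 4 h (-0.50 and -1.42, adjusted p = 0.00891 and 1.49e-05), as did SPRY1 (-0.63 and -1.31, adjusted p = 0.00186 and 1.46e-05). At 4 h 9 to 10 of the 15 were lower under Dex and 8 to 9 under CpdA with either vehicle sample alone. At CpdA 2 h the count was 2 higher and 3 lower with vehicle replicate 2 alone and 0 higher and 2 lower with replicate 1 alone.

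Of 15 NF-kB target genes tested, Dex raised 3 and lowered 10 at 2 h (median -0.63) and raised 3 and lowered 9 at 4 h (median -0.51). CpdA raised 2 and lowered 7 at 2 h (median -0.43) and raised 1 and lowered 7 at 4 h (median -0.30). IL6 was at 28.0 and 11.2 RPKM in vehicle, 1.29 and 1.40 at Dex 2 h, and 59.5 and 56.5 at CpdA 2 h, so that it fell under Dex (-3.63, SE 0.32, adjusted p = 7.05e-05) and rose under CpdA (1.70, SE 0.32, adjusted p = 0.0158). IL6 was at -3.20 at Dex 4 h (adjusted p = 7.8e-05). CCL2, a monocyte chemokine, fell at Dex 2 h and 4 h (-2.58 and -3.91, adjusted p = 0.00042 and 1.31e-05) and at CpdA 4 h (-1.40, adjusted p = 0.0103). BIRC3, an inhibitor of apoptosis, fell at CpdA 2 h (-1.08, adjusted p = 0.0308) and the chemokine CXCL1 at CpdA 4 h (-1.60, adjusted p = 0.0106). BIRC3 rose under Dex, by 2.14 at 2 h and 1.70 at 4 h (adjusted p = 0.000324 and 0.00067). Against vehicle replicate 1 and replicate 2 alone the changes were -1.56 and -0.60 for BIRC3 at CpdA 2 h, -2.29 and -0.92 for CXCL1 at CpdA 4 h, -1.86 and -0.94 for CCL2 at CpdA 4 h (adjusted p = 0.0541 with replicate 2), and 1.04 and 2.36 for IL6 at CpdA 2 h. Of the alternatives, 10 of 19 called BIRC3, 17 of 18 CXCL1, 15 of 18 CCL2 and 15 of 19 IL6 in those treatments. Over either vehicle sample alone 9 to 11 of the 15 were lower under Dex and 6 to 9 under CpdA. At CpdA 4 h 4 were higher with vehicle replicate 2 alone and 0 with replicate 1 alone.

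Of 5 SRF cofactors tested, Dex raised 3 and lowered 0 at each time (medians 0.30 and 0.35), and CpdA raised 0 and lowered 1 at 2 h and 2 at 4 h (medians -0.14 and -0.27). At an unadjusted limma p below 0.05 the cofactor counts were 3 higher and 0 lower at each Dex time and 0 higher and 3 lower at each CpdA time. MKL1, which encodes MRTF-A, was at 7.27 and 8.38 RPKM in vehicle and 16.0 and 15.0 at Dex 4 h (0.98, SE 0.07, adjusted p = 8.59e-06), after a rise of 0.32 at 2 h (adjusted p = 0.0177). ELK3 rose by 0.49 and 0.62 under Dex (adjusted p = 4.87e-05 and 4.46e-06) and fell at CpdA 4 h (-0.27, adjusted p = 0.00176), and ELK4 fell under CpdA (-0.49 and -0.44, adjusted p = 0.0245 and 0.0161). Of 13 cytoskeletal targets of SRF, Dex raised 1 and lowered 2 after 2 h (median -0.08) and raised 2 and lowered 2 after 4 h (median 0.02), and CpdA raised 1 and lowered 0 after 2 h (median 0.06) and after 4 h (median 0.01). The Dex 4 h counts of cytoskeletal targets were near the shares over all genes, 9.26% higher and 18.2% lower. At an unadjusted limma p below 0.05 the cytoskeletal counts were 3 higher and 0 lower at CpdA 2 h and 2 higher and 1 lower at CpdA 4 h. VCL, which encodes vinculin of focal adhesions, rose from 114 and 108 RPKM to 204 and 235 at Dex 4 h (0.98, SE 0.06, adjusted p = 3.46e-06), and by 0.49 at Dex 2 h (adjusted p = 0.000706). FHL2 fell at Dex 4 h (-0.85, adjusted p = 2.61e-05). TAGLN fell at Dex 2 h (-0.56, adjusted p = 0.035) and rose at CpdA 4 h (0.53, adjusted p = 0.0298), and FILIP1L rose at CpdA 2 h (0.44, adjusted p = 0.0142). The decrease of TAGLN was called in 10 of 19 alternatives and its increase in 13, and neither was called with 1 vehicle sample (adjusted p = 0.0898 and 0.138 for the decrease and 0.135 and 0.0642 for the increase, with replicates 1 and 2 alone). MKL1 at Dex 2 h (0.0599 with replicate 2), ELK4 at CpdA 2 h (0.11 and 0.066) and 4 h (0.054 and 0.0711), and FILIP1L (0.093 with replicate 1) also lost their calls with 1 vehicle sample, by adjusted limma p. With 1 vehicle sample 2 to 3 cofactors were higher under Dex, 0 to 1 were lower under CpdA, and 0 to 1 cytoskeletal targets were higher and 0 to 2 lower in any treatment.

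A further list held 4 genes close to these families in name or sequence, namely EGR4, IER5L, IER3IP1 and WT1. IER3IP1 shares only part of its name with IER3. Of these 4, 1 was lower at Dex 2 h, 2 at Dex 4 h, 0 at CpdA 2 h and 1 at CpdA 4 h, and none was higher (medians -0.15, -0.88, 0.09 and -0.15). With 4 genes, the count of 1 at CpdA 4 h cannot be told from the 13.8% of all genes lower there. At an unadjusted limma p below 0.05 the counts were 2 lower and 0 higher at each Dex time, 0 lower and 2 higher at CpdA 2 h and 1 lower and 1 higher at CpdA 4 h. With vehicle replicate 1 alone 3 were lower at Dex 4 h, and with replicate 2 alone 1 was higher at CpdA 2 h and 0 lower at CpdA 4 h. IER5L, a paralogue of IER5, was at 10.3 and 9.99 RPKM in vehicle, 8.23 and 8.21 at Dex 2 h and 6.05 and 5.73 at Dex 4 h (-0.30 and -0.77, adjusted p = 0.00602 and 6.43e-06). WT1, a zinc finger factor related to the EGR family, fell at Dex 4 h (-1.33, adjusted p = 0.000385) and at CpdA 4 h (-0.56, adjusted p = 0.0465), from 0.624 and 0.610 RPKM in vehicle. The CpdA 4 h call of WT1 was made in 5 of 18 alternatives and with neither vehicle sample alone (adjusted p = 0.108 and 0.132). Of the genes listed, MYOCD was not analysed here, and CNN1 and LTB did not pass the filter.

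**Figure D5:**
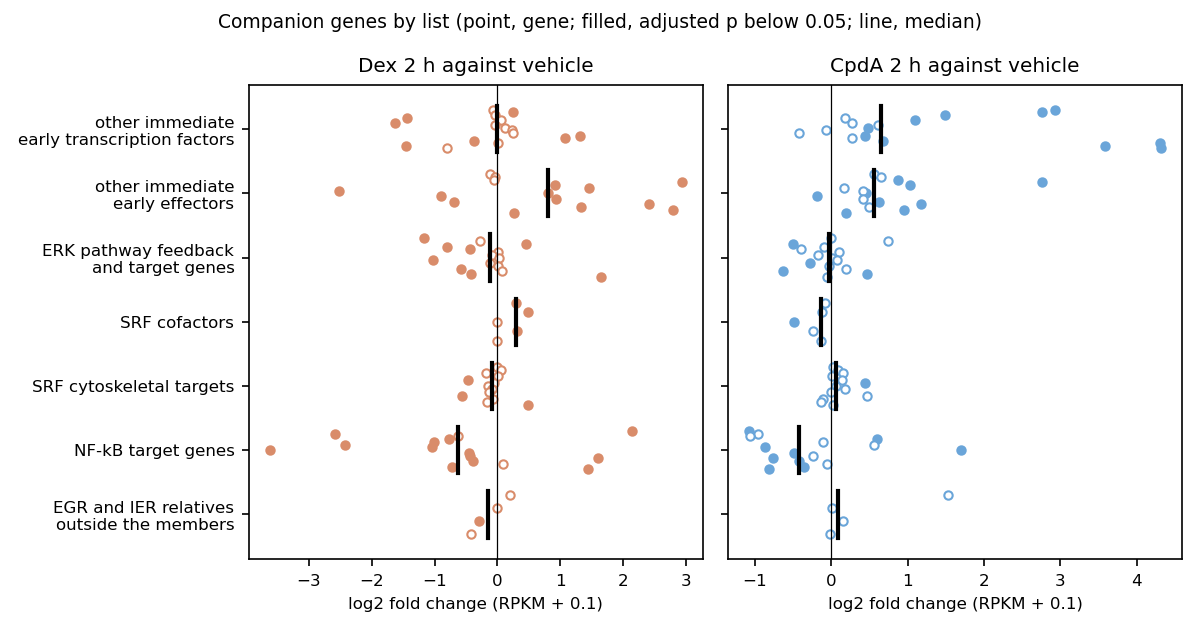
Log2 fold change of RPKM + 0.1 against both vehicle samples (horizontal axis) of each gene of the 7 lists (vertical axis) at Dex 2 h (left) and CpdA 2 h (right); the axes differ in range, filled points have an adjusted p below 0.05 and lines mark the median of each list. Under CpdA 10 of the 16 other immediate early transcription factors are called higher and 0 lower, against 1.89% and 4.29% of all genes. NR4A3, among these 10, passed the filter on low values only through its CpdA samples. Under Dex 10 of the 15 NF-kB target genes are called lower and 3 higher, against 5.82% and 4.49% of all genes.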

How the data were processed

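RNA-seq was performed on total RNA of MDA-MB-231 cells in 10 samples, with libraries from the Illumina TruSeq RNA kit. The authors aligned the reads with TopHat2 2.0.13 and computed abundances with Partek 6.6. The submitters' processing notes name the build hg19, and the deposited RPKM values list each of 20668 gene symbols once per sample. How transcripts were joined into symbols and whether strand was used are not given in the sources used here. A gene's RPKM depends on that joining and on the sample's mapped reads, and low genes move in steps of 1 read.

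Groups came from the sample titles. The 2 vehicle samples served as the reference for both times. RPKM were taken as log2(RPKM + 0.1), which understates the changes of low genes, and genes with at least 0.5 RPKM in at least 2 samples were kept (12713). A model with 1 mean per group was run in limma 3.58.1 (R 4.3.3), using lmFit, contrasts.fit and eBayes with trend, followed by Benjamini-Hochberg adjustment across every gene kept. The fit was tested on simulated data. Ratios of IER3 were compared by exact permutation over samples. With 2 samples against 2, an exact test of 1 gene cannot go below 0.333.

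The 9 genes, the 7 lists and the tests were chosen with earlier results of these data known. From each list the text names the 2 genes with the largest called change in each treatment, and for IER3 and EGR1 the 5 genes of highest correlation. The alternatives were pseudocounts of 1 and 0.01, other filters, median scaling, quantile normalisation, no trend, only the 2 groups compared, a replicate block and each sample left out. Fits with 1 vehicle sample counted at a fold of 2 or over the lists, and fits without vehicle, were added after the data were seen. Gene positions and overlaps came from GENCODE v44 lifted to GRCh37, and promoter windows from RefSeq on GRCh38.p14. Motifs were searched, tables were made and figures were drawn with Python 3.11.15, pandas 2.3.3, numpy 2.4.6 and matplotlib 3.10.9. The GR ChIP-exo and the AP1 and p65 ChIP-seq samples of the series were not analysed here.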

Additional observations from a re-analysis of the deposited data

Results flagged for a closer look

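The difference between Dex and CpdA changed between 2 h and 4 h for EGR1 and IER2, by a limma test of the difference itself over all 10 samples with Benjamini-Hochberg adjustment, which called 6.6% of the 12713 genes tested. For EGR1 the log2 difference, Dex minus CpdA, was -2.95 at 2 h and -1.11 at 4 h, a difference of 1.84 (SE 0.43, adjusted p = 0.0364). For IER2 it was -1.76 at 2 h and -0.86 at 4 h, a difference of 0.90 (SE 0.09, adjusted p = 0.00114). For IER3 the difference was 0.87 (SE 0.31, adjusted p = 0.149) and for IER5 0.26 (SE 0.07, adjusted p = 0.0611). In the fit without the vehicle samples EGR1, IER2, IER3 and IER5 all passed (adjusted p = 0.00321, 0.00147, 0.00204 and 0.0248, with 7.93% of all genes called).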

How the results depend on the processing

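Over 72 results (9 genes in 8 comparisons) and 19 planned settings, 1210 of 1352 refits kept direction and side of the threshold, 48 lost a call, 72 gained one and 22 turned direction, in 13 results, 11 of them without a vehicle sample. In 2 of the 22 the turned value was called, both without vehicle replicate 1: NAB1 at CpdA 2 h (0.39, adjusted p = 0.0137) and IER3 at CpdA 4 h (0.31, adjusted p = 0.042), against -0.51 and -0.57 without replicate 2. The other 20 were called neither before nor after. Leaving out a sample in turn took EGR1 from -0.18 to 0.93, EGR2 from -0.76 to 0.33, EGR3 from -1.61 to 0.92 and NAB2 from -0.95 to 0.31 at Dex 2 h, EGR1 from -0.0639 to 1.05 at Dex 4 h, NAB2 from -0.44 to 0.82 at CpdA 2 h, and EGR2 from -0.54 to 0.55, EGR3 from -1.30 to 1.24 and NAB2 from -0.91 to 0.35 at CpdA 4 h. Between the Dex times EGR1 went from -0.10 to 0.34 and IER3 from -0.16 to 0.0661. Turned values near 0 came from pseudocounts of 1 (EGR2 at CpdA 4 h, -0.0134) and 0.01 (EGR3 at CpdA 4 h, 0.16), quantile normalisation (EGR2 at CpdA 4 h, -0.0372) and median scaling (EGR3 at CpdA 4 h, 0.0362, and IER3 between the Dex times, 0.0093). Of 49 changes named from the lists, 36 were called in every alternative that tested them, and 8 lost the call with 1 vehicle sample. Of the counts of the 9 genes called, CpdA 2 h against vehicle gave 1 with no filter on low values and 1 with only the 2 groups fitted. Fits of only the 2 groups gave 8 for Dex 4 h against CpdA 4 h, with 1421 higher and 1585 lower over all genes in place of 1955 and 2286, and 9 for CpdA 4 h against 2 h, with 1561 higher and 1939 lower in place of 662 and 915, and median scaling gave 2 for Dex 4 h against 2 h. Leaving out each sample in turn gave 3 to 7 genes for Dex 2 h, 4 to 8 for Dex 4 h, 1 to 8 for CpdA 2 h and 2 to 7 for CpdA 4 h against vehicle, with the highest count without a vehicle sample in each case. Between treated groups it gave 5 to 9 for Dex against CpdA at 2 h, 4 to 9 at 4 h, 0 to 4 for Dex 4 h against 2 h and 1 to 9 for CpdA 4 h against 2 h. Without both vehicle samples the last 3 counts were 9, 4 and 9. Both counts of 9 include EGR2 and EGR3, which among treated samples reached the filter only at CpdA 2 h. The cause of these shifts in the counts was not tested. Of the 8 IER3 ratios, 6 passed with a pseudocount of 0.01 and 7 with quantile normalisation. These ratios share the fall of IER3, and in the main setting its ratio to 99.6% of the 12712 other genes separated Dex from CpdA alike. Same-numbered samples did not deviate together (10 correlations of -0.0568 to 0.1975, 3 of them over 0.1), so the replicate block is only a check: it gave 3, 5, 3 and 3 genes against vehicle in the order above, 6 and 5 for Dex against CpdA, 1 for the Dex times and 6 for the CpdA times. Depth is known only relative to vehicle replicate 1, which limits what can be said of EGR2 and EGR3 below 0.5 RPKM.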
